A study of Homo sapiens with 7 samples.

Results

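The AML1-ETO sites described here were chosen by 2 conditions on the deposited peak lists, a p300 window sharing at least 1 bp with the AML1-ETO window and no N-CoR window doing so. A window is the 100 bp centred on a peak summit. Of 18087 AML1-ETO sites, 1104 (6.10%) met both conditions, and they are called p300-only sites below. The other AML1-ETO sites held N-CoR without p300 (4192, N-CoR-only), both co-regulators (2842) or neither (9949). The study mapped H3K4me3, p300, N-CoR, AML1 and AML1-ETO by ChIP-seq in Kasumi-1, an established line of leukemic myeloblasts that carries the t(8;21) translocation and therefore makes the AML1-ETO fusion protein. All libraries came from this single line in log-phase growth, with no treatment or genotype set against another, and the study asked which co-regulator accompanies the fusion protein at which sites. The fusion was recovered with an antibody to ETO, and AML1 with an antibody to its C-terminal region, which the fusion lacks. The lists hold 18087 AML1-ETO, 11692 AML1, 11020 p300, 10004 N-CoR and 19632 H3K4me3 peaks, with positions only and no read counts, so the depth behind a single site is unknown. Because 2 biological replicates were pooled before peaks were called, each antibody has 1 list, and the variation between replicates cannot be seen. Shares are given with exact Clopper-Pearson 95% intervals and differences between shares with Newcombe 95% intervals. Both cover counting error over sites only, and no p-value is given.

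AML1, also called RUNX1, is a transcription factor of blood stem cells and myeloid cells that binds DNA through its Runt homology domain. In AML1-ETO this domain is joined to most of ETO, a protein that binds co-repressors. N-CoR is one of these co-repressors and works with histone deacetylases, whereas p300 is an acetyltransferase that places acetyl groups on histones and transcription factors and is usually found at active enhancers and promoters. H3K4me3, trimethylation of lysine 4 of histone H3, marks the nucleosomes that flank active or poised transcription starts.

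The sites fell into 880 with an H3K4me3 summit within 1000 bp (79.7%, interval 77.2% to 82.0%) and 224 without. Examples of the sequences around their summits are shown first because the later counts refer to them. Each is the hg19 plus strand of the 100 bp window, in lower case, and capitals mark the named sequence on either strand. The peak number is the position of the site in the deposited AML1-ETO list. For these examples, sites whose window overlapped an annotated exon were passed over, so that lower-numbered sites with the same sequence exist (JMJD6 and PIGV hold the Runx consensus). Near H3K4me3, the lowest-numbered remaining sites with the Runx consensus TGTGGT lay 126 bp upstream of a start of MEX3B, an RNA-binding protein gene (chr15:82338536-82338635), and 462 bp downstream of a start of CDC37, a kinase co-chaperone gene (chr19:10530285-10530384). The lowest-numbered remaining sites with the ETS core AGGAAG and no Runx consensus lay in an intron of DYRK1A, a protein kinase gene, 7075 bp upstream of the nearest annotated start (chr21:38730750-38730849), and 296 bp upstream of MALT1, a paracaspase gene of NF-kB signaling (chr18:56338351-56338450). The lowest-numbered remaining site with neither sequence lay in an intron of ALOX5 (chr10:45914147-45914246). Its window held the PU.1 sequence GAGGAA and the C/EBP sequence TTGCNNAA, which are not marked.
MEX3B, Runx: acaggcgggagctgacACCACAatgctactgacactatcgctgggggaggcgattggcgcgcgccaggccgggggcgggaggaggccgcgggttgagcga
CDC37, Runx: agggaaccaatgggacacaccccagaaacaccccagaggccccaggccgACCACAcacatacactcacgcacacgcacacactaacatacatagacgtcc
DYRK1A, ETS core: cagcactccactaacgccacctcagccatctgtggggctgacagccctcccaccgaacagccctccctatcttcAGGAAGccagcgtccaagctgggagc
MALT1, ETS core: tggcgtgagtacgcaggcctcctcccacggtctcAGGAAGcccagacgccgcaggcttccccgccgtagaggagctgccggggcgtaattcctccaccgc
ALOX5, neither, no capitals: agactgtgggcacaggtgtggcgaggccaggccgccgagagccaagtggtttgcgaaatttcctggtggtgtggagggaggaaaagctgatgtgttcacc

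In the same sites near H3K4me3, 4 sequences known from promoters of widely expressed genes are shown as well, and these examples were picked after the counts were seen. They are the ETS promoter form CCGGAA at CAMK2B, a calmodulin-dependent kinase gene (chr7:44280724-44280823), the CRE sequence TGACGT 5754 bp downstream of the start of the non-coding gene LINC01264 (chr10:43471151-43471250), the NRF1 palindrome CGCATGCG 4349 bp downstream of LINC01779 (chr1:116711129-116711228), and the YY1 sequence AAGATGGC 145 bp upstream of ATF1, a CRE-binding factor gene (chr12:51157666-51157765).
CAMK2B, ETS promoter form: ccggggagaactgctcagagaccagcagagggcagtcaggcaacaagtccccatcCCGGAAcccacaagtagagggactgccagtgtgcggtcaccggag
LINC01264, CRE sequence: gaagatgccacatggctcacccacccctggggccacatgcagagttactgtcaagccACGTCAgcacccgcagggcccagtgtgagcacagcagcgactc
LINC01779, NRF1: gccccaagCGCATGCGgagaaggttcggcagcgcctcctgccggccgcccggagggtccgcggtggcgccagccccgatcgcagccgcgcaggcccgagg
ATF1, YY1: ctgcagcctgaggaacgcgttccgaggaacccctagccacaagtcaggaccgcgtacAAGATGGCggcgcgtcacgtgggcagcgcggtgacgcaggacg

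Away from H3K4me3, the lowest-numbered remaining sites with the Runx consensus lay 10750 bp upstream of ATP6V1G2, a gene of the vacuolar proton pump (chr6:31526904-31527003), and 7624 bp upstream of ENG, the gene of the TGF-beta co-receptor endoglin (chr9:130624511-130624610). Those with the ETS core and no Runx consensus lay 56575 bp downstream of the start of TNFAIP3, which encodes the NF-kB inhibitor A20 (chr6:138249081-138249180), and 522 bp upstream of the non-coding gene LINC02980 (chr6:25992297-25992396). The lowest-numbered remaining site with neither held the ETS promoter form and lay 16612 bp upstream of NTSR1, the gene of a neurotensin receptor (chr20:61371321-61371420).
ATP6V1G2, Runx: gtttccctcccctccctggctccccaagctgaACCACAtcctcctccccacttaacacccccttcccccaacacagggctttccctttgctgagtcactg
ENG, Runx: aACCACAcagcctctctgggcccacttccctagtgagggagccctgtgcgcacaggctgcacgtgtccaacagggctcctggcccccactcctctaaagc
TNFAIP3, ETS core: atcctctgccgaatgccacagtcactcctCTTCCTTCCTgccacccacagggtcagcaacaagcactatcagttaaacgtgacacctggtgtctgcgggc
LINC02980, ETS core: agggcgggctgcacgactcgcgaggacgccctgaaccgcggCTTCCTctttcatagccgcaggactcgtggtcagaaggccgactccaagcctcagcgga
NTSR1, ETS promoter form: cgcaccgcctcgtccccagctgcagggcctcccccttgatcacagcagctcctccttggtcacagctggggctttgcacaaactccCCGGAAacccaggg

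The conditions left most p300-only sites far from N-CoR, but not all of them. The median distance from the AML1-ETO summit to the nearest N-CoR summit was 35368.5 bp, and 951 sites had no N-CoR summit within 1000 bp. At 64 sites the nearest N-CoR summit was 100 to 199 bp away, at 45 sites 200 to 499 bp and at 44 sites 500 to 1000 bp. Sites with and without H3K4me3 differed here, since an N-CoR summit lay within 200 bp at 26 of the 880 sites near H3K4me3 (2.95%) and at 38 of the 224 sites away from it (17.0%). Just past the N-CoR overlap limit, 32 p300-only sites had their nearest N-CoR summit at 100 to 119 bp. Within the limit, 66 AML1-ETO sites with p300 had one at 80 to 99 bp and so were not p300-only. On the p300 side, 126 sites had the p300 summit at 80 to 99 bp, and 86 sites just missed with one at 100 to 119 bp. The p300 summit lay a median of 36 bp from the AML1-ETO summit, with quartiles of 17 and 61 bp. These distances were used to choose the sites and are given as a description.

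**Figure D1:**
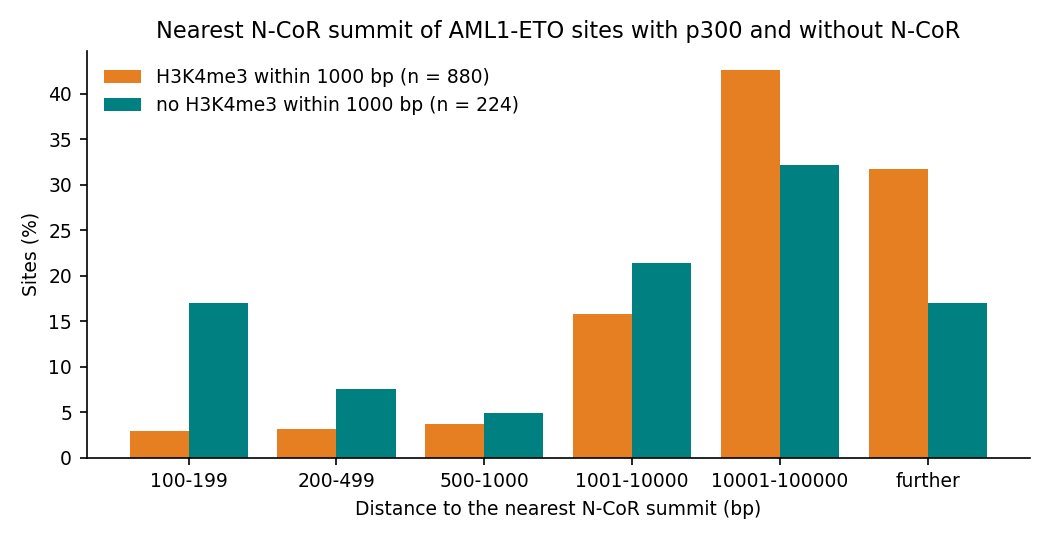
Share of p300-only sites (y axis, %) by distance from the AML1-ETO summit to the nearest N-CoR summit (x axis, bp, unequal bins), for the 880 sites with an H3K4me3 summit within 1000 bp (orange) and the 224 without (teal). The bin next to the limit, 100 to 199 bp, holds 2.95% of the first and 17.0% of the second.

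H3K4me3 and the gene annotation took no part in choosing the sites. An H3K4me3 summit lay within 1000 bp of 27.4% of all AML1-ETO sites, against 79.7% of p300-only sites. N-CoR-only sites had one in 14.8%, which is 64.9 percentage points lower (interval 62.2 to 67.4). Sites with both co-regulators had one in 33.1% and sites with neither in 25.2%. A transcription start of any gene lay within 1000 bp of 34.5% of all AML1-ETO sites and of 865 p300-only sites, or 78.4% (75.8% to 80.7%). Among the 880 sites near H3K4me3, 797 were within 1000 bp of a start (90.6%), compared with 84.2% of all AML1-ETO sites near H3K4me3. The difference was 9.57 percentage points (5.99 to 13.3) from N-CoR-only sites (81.0%), 12.01 (8.74 to 15.3) from sites with both (78.6%) and 5.59 (3.09 to 7.87) from sites with neither (85.0%). The other p300-only sites near H3K4me3 lay in introns (31), exons (19), within 10 kb upstream of a gene (19) or between genes (14).

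The sites near H3K4me3 also lay closer to starts than other AML1-ETO sites near H3K4me3. Their median distance to the nearest start was 48 bp, and 578 of 880 lay within 100 bp (65.7%, interval 62.4% to 68.8%). The share was 43.3% for N-CoR-only sites near H3K4me3, 49.3% for sites with both and 42.5% for sites with neither. The differences were 22.4 (17.3 to 27.3), 16.4 (11.9 to 20.8) and 23.2 percentage points (19.4 to 26.8). Direction was read from the canonical start of a protein-coding gene, the principal transcript in the annotation, which 685 of the 880 sites had within 1000 bp. Of these, 458 lay upstream of the start, 225 downstream and 2 on it, so that 66.9% were upstream (63.2% to 70.4%), with a median position of -38 bp. N-CoR-only sites and sites with both were upstream in 71.8% and 74.5%, and sites with neither in 57.2%. Of the 685 sites, 419 lay within 100 bp of the canonical start. In the 100 bp downstream of the start there were 160 p300-only sites (n = 880) and 30 N-CoR-only sites (n = 621). Canonical protein-coding starts on opposite strands, head to head, lay within 1000 bp of 68 of the 880 sites (7.73%). The shares were 3.54% of N-CoR-only sites, 3.93% of sites with both and 4.86% of sites with neither, and the intervals of the 3 differences excluded 0. Any canonical start within 1000 bp was also less frequent there, at 358 of 621, 526 of 942 and 1696 of 2509 sites, against 685 of 880. Its part in the head-to-head differences was not tested.

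**Figure D2:**
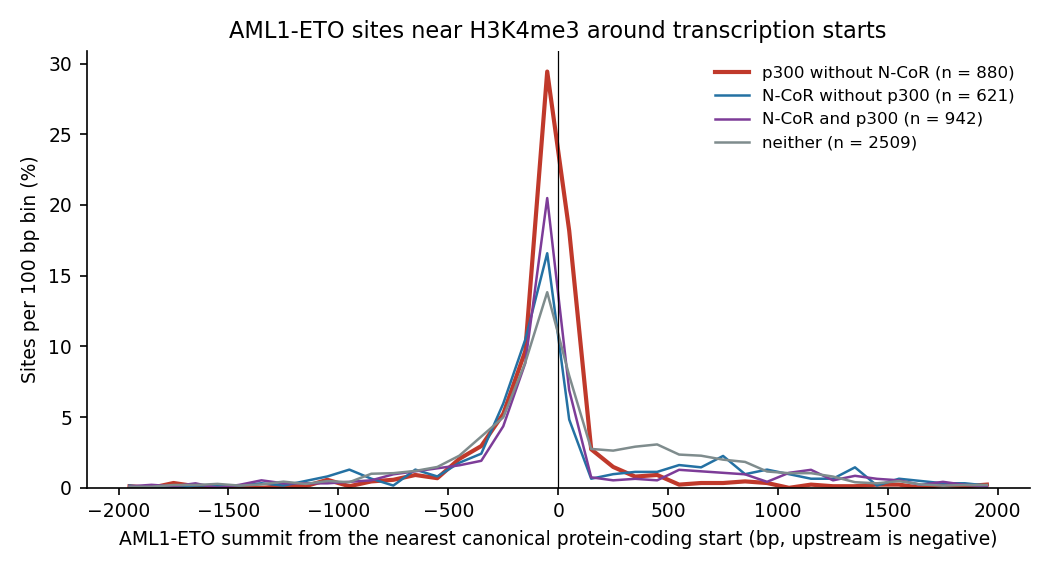
Position of AML1-ETO summits relative to the nearest canonical protein-coding start (x axis, bp, negative values upstream) as a share of the sites of each class that had H3K4me3 within 1000 bp (y axis, % per 100 bp bin). The p300-only line is highest in the 2 bins that meet at the start, where it counts 259 upstream and 160 downstream sites of 880.

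The H3K4me3 summits lay to the side of the bound sequence and mostly on the gene's side. The nearest H3K4me3 summit was a median of 290 bp from the AML1-ETO summit in the 880 sites. At the 685 sites next to a canonical start, it lay in the direction of transcription in 499 (72.8%, interval 69.3% to 76.1%), at a median of 301 bp. The share was 66.8% (61.6% to 71.6%) for N-CoR-only sites, 70.9% for sites with both and 60.4% (58.1% to 62.8%) for sites with neither. H3K4me3 summits stood on both sides of the AML1-ETO summit at 221 of the 880 sites (25.1%), against 13.8% of N-CoR-only sites, a difference of 11.3 percentage points (7.24 to 15.1). Sites with both and sites with neither had 15.9% and 19.1%.

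**Figure D3:**
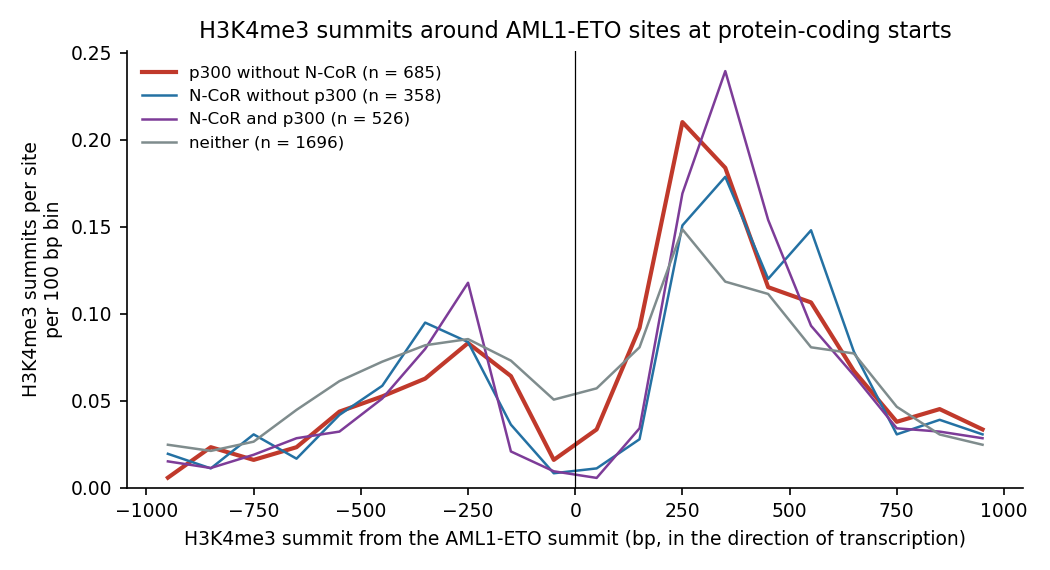
H3K4me3 summits around AML1-ETO sites that lay within 1000 bp of a canonical protein-coding start and of H3K4me3 (x axis, bp from the AML1-ETO summit in the direction of transcription), as summits per site per 100 bp bin (y axis). For the 685 p300-only sites the bin from 200 to 300 bp downstream holds 144 summits and the bin from 0 to 100 bp upstream holds 11.

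A site lay within 1000 bp of a start of 916 protein-coding genes, which is 4.54% of the 20176 in the annotation, and 718 of these (78.4%) had no AML1-ETO site of another class at any start, against 80.2% of all protein-coding genes. An N-CoR-only site was also at 38 of them (4.15%, against 3.98% of all), a site with both at 61 (6.66% against 4.47%) and a site with neither at 133 (14.5% against 13.6%). Of all 1104 sites, the nearest start belonged to a protein-coding gene in 862 (78.1%) and to a long non-coding RNA gene in 183. Among the 10 lowest-numbered sites near H3K4me3, those at promoters lay 4 bp downstream of the start of JMJD6, an oxygenase of the JmjC family, 39 bp downstream of that of GCFC2, 176 bp upstream of MARCHF3, a membrane-bound ubiquitin ligase gene, and 271 bp upstream of GNA13, the gene of a G protein alpha subunit. The fifth promoter site lay 919 bp downstream of a start of the non-coding gene FHIP1A-DT. The others lay near DYRK1A, ALOX5, COX6B1P1, SUN3, a nuclear envelope gene, and SLC17A7, the gene of a vesicular glutamate transporter. Of the 10, 5 had an N-CoR summit between 115 and 586 bp away, outside the overlap limit. The 5 lowest-numbered sites with no N-CoR summit within 1000 bp were those of MARCHF3, FHIP1A-DT, SLC17A7, GNA13 and GCFC2, where the nearest lay between 25746 and 788052 bp away. At 4 of these 5 the AML1 window overlapped, and GNA13 was the exception.

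Gene lists drawn from general knowledge show which kinds of promoters held a p300-only site, read against the 4.54% of all protein-coding genes. Counts are of genes with a site within 1000 bp of a start. Of all protein-coding genes 23.3% had an AML1-ETO site of any class, 3.98% an N-CoR-only site and 4.47% a site with both. Among DNA repair genes 9 of 62 (14.5%) held one, including RAD50, ATM, DDB1, RAD18, PMS1 and FANCD2. An N-CoR-only site was at 4 (6.45%) and a site with both at 0. A count of 0 allows up to 4.84% (3 of 62), which is an approximate limit and not an exact interval. An AML1-ETO site of any class was at 38.7% of the DNA repair genes. RAD50 and ATM, a DNA end-binding protein and the kinase activated by breaks, had summits 57 bp downstream and 9 bp upstream of a start. FANCD2, of the Fanconi anemia pathway, had one 8 bp upstream with both the ETS promoter form and a CRE sequence in the window. Among chromatin modifiers 9 of 68 (13.2%) held one, and the histone demethylases KDM5B, KDM2B and KDM3B, the methyltransferase KMT2C and the deubiquitinase complex genes BAP1 and ASXL2 were among them. AML1-ETO sites of any class were at 54.4% of the chromatin modifier genes, N-CoR-only sites at 6 (8.82%) and sites with both at 11 (16.2%), so that all 3 classes were above their shares of all genes.

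Promoters of the protein synthesis machinery held p300-only sites in varying shares. Mitochondrial ribosomal protein genes had them in 8 of 78 (10.3%), for example MRPS18C, MRPL55 and MRPS17, and aminoacyl-tRNA synthetase genes in 4 of 35 (11.4%), AARS1, EPRS1, NARS2 and MARS1. The AARS1 and NARS2 summits each lay 2 bp upstream of a start, with the Runx consensus in the window and an overlapping AML1 window. Translation factor genes had them in 5 of 69 (7.25%), 3 of which encode subunits of the exchange factor eIF2B (EIF2B2, EIF2B3 and EIF2B5). Cytosolic ribosomal protein genes, with 3 of 86 (3.49%), lay near the share of all genes, as did respiratory chain genes with 4 of 84 (4.76%) and zinc finger genes named ZNF with 27 of 508 (5.31%). Genes of RNA polymerase II, general factors and Mediator had them in 7 of 83 (8.43%), splicing factors in 5 of 72 (6.94%), proteasome subunits in 3 of 48 (6.25%) and core and linker histones in 1 of 87 (1.15%). AML1-ETO sites of any class were at 35.9% of mitochondrial ribosomal protein genes, 40.0% of aminoacyl-tRNA synthetase genes, 29.0% of translation factor genes and 33.7% of cytosolic ribosomal protein genes, all above the 23.3% of all genes. Splicing factor genes had one at 40.3%, with N-CoR-only sites at 12.5% and sites with both at 9.72%, each above the p300-only share. For genes of RNA polymerase II, general factors and Mediator the share of any class was 33.7%, and for proteasome subunits 20.8%. N-CoR-only sites and sites with both were at 3.85% and 6.41% of mitochondrial ribosomal protein genes. Aminoacyl-tRNA synthetase genes had 2.86% and 5.71%, translation factor genes 4.35% and 8.70%, and cytosolic ribosomal protein genes 9.30% and 4.65%. Genes of RNA polymerase II, general factors and Mediator had 3.61% and 8.43%, and histone genes 1.15% and 6.90%. Respiratory chain genes had 1.19% and 5.95%, proteasome subunits 4.17% and 0, and ZNF genes 2.76% and 4.53%.

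None of 48 myeloid effector genes, which encode granule proteins and other products of mature myeloid cells, held a p300-only site. By the same approximate limit (3 of 48), a count of 0 allows up to 6.25%, above the 4.54% of all genes. N-CoR-only sites were at 10 of these genes (20.8%, against 3.98% of all genes) and sites with both at 10 (20.8%, against 4.47%). Of 54 blood cell transcription factor genes, 3 held a p300-only site (5.56%), RUNX3, KLF6 and IRF1, 3 an N-CoR-only site (5.56%) and 13 a site with both (24.1%). Among 40 genes of NF-kB and the TNF response, 5 (12.5%) held one, TRAF1, IKBKE, NFKB1, TRAF6 and TNFAIP3, with summits 29, 3, 19, 4 and 2 bp downstream of a start. This list was above all genes in the other classes too, with an AML1-ETO site of any class at 42.5%, an N-CoR-only site at 3 genes (7.50%) and a site with both at 6 (15.0%). Cell cycle genes had 5 of 52 (9.62%), among them the phosphatase gene CDC25C, the checkpoint kinase gene BUB1 and the cyclin gene CCND2. The growth factor receptor genes INSR, CSF3R and KIT (3 of 37, 8.11%), the apoptosis genes BBC3 and BCL2 (2 of 17, 11.8%), BATF and DUSP5 among AP-1 and immediate early genes (2 of 35, 5.71%) and HLA-DMB in antigen presentation (1 of 28, 3.57%) held the rest. AML1-ETO sites of any class were at 59.5% of the growth factor receptor genes and 54.3% of the AP-1 and immediate early genes, with sites with both at 13.5% and 14.3% and N-CoR-only sites at 8.11% and 17.1%. Cell cycle genes had 26.9% for any class, 3.85% for N-CoR-only sites and 3.85% for sites with both. In the same order, the apoptosis list had 23.5%, 0 of 17 genes and 5.88%, and antigen presentation genes 17.9%, 3.57% and 3.57%. With lists of this size a share rests on few genes, and the lists were not tested.

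AML1 windows overlapped 46.2% of all AML1-ETO sites and 379 of the p300-only sites (34.3%, interval 31.5% to 37.2%). The AML1 summit then lay a median of 29 bp from the AML1-ETO summit. The share was 34.3% with H3K4me3 (302 of 880) and 34.4% without it (77 of 224), with a difference of -0.0568 percentage points (-7.18 to 6.66). All AML1-ETO sites near H3K4me3 overlapped AML1 in 38%, and those away from it in 49.3%. Near H3K4me3, AML1 overlapped 57.5% of N-CoR-only sites and 68.4% of sites with both. This is 23.2 percentage points (18.1 to 28.1) above p300-only sites for the former. AML1 overlapped 23.1% of sites with neither, 11.2 percentage points (7.70 to 14.8) below p300-only sites.

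The AML1 difference from N-CoR-only sites moved with the order in which AML1-ETO sites were deposited, whose meaning is not stated in the sources used here. The sites stood late in the list, with a median peak number of 11451.5, as did sites with neither (11414), whereas N-CoR-only sites and sites with both had medians of 5252.5 and 3734. Their share went from 20 of 1808 AML1-ETO sites (1.11%) in the first of 10 equal parts of the list to a highest value of 168 of 1809 (9.29%) in part 8, and was 7.90% and 7.68% in the last 2 parts. Among the sites that overlapped p300, 2.19% lacked N-CoR in the first of the 10 parts and 59.9% in the last. With the list in 3 equal parts, AML1 overlapped 59.4% of p300-only sites in the first, 35.2% in the second and 24.8% in the last, and the Runx consensus was in 17.1%, 11.2% and 5.60%. The H3K4me3 share was 68.6%, 77.9% and 85.2%. Within these 3 parts and near H3K4me3, AML1 overlap was lower than at N-CoR-only sites by 19.8 percentage points (9.97 to 29.8) in the first, and by 5.04 (-3.55 to 13.7) and 5.95 (-3.01 to 15.7) in the second and the last, where the intervals included 0. Away from H3K4me3 it was lower by 18.1 (6.79 to 31.4), 27.9 (17.6 to 36.9) and 19.0 percentage points (8.47 to 26.6). Sites with both overlapped AML1 more often than p300-only sites in each part, by 25.4, 20.4 and 21.5 percentage points near H3K4me3 and by 26.0, 21.3 and 13.7 away from it, and each interval excluded 0. The part of the deposited order in the AML1 difference was not tested beyond these values.

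**Figure D4:**
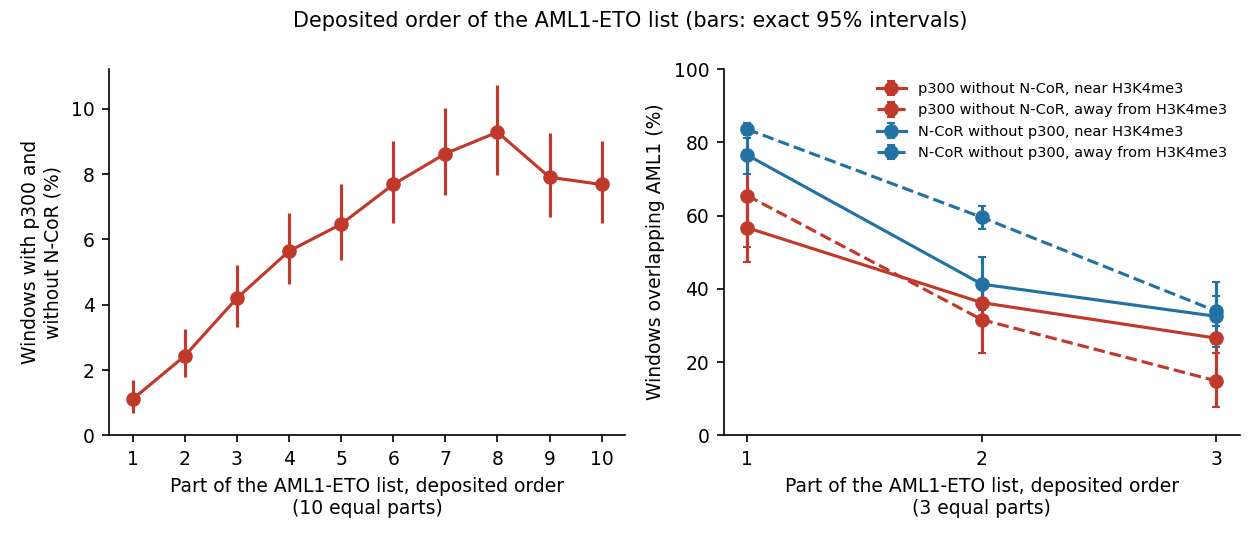
Left, the share of AML1-ETO sites that are p300-only (y axis, %) in each of 10 equal parts of the deposited list (x axis). Right, the share of p300-only (red) and N-CoR-only (blue) sites that overlap AML1 (y axis, %) in each of 3 equal parts (x axis), near H3K4me3 (solid) and away from it (dashed). Bars are exact 95% intervals, and the AML1 share falls from the first to the last part in all 4 lines.

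Over the whole list and near H3K4me3, the p300-only sites held the Runx consensus less often than the other classes, but within parts of the list most intervals included 0 and 1 direction turned round. The windows held a mean of 68.2% G and C and 9.99 CG dinucleotides, compared with 65.7% and 8.34 over all AML1-ETO sites near H3K4me3 and 66.7% and 8.63 at those with neither co-regulator. N-CoR-only sites near H3K4me3 had 62.3% and 6.76, and sites with both had 63.2% and 7.09. The Runx consensus, present at 31.3% of all AML1-ETO sites and 12.3% of those near H3K4me3, was in 70 of the 880 windows (7.95%, interval 6.25% to 9.94%). In windows 1000 bp to either side of the same summits it was in 5.23%. N-CoR-only sites near H3K4me3 held it in 13.8%, sites with both in 12.4% and sites with neither in 13.4%, and the intervals of the 3 differences excluded 0. Within each of the 3 parts of the list, the difference from N-CoR-only sites was -3.17, -2.29 and -4.47 percentage points, with intervals that included 0. From sites with both it was -4.79 and -0.626 in the first and the last part and turned round in the second, at 3.68 (-0.994 to 8.07), where p300-only sites held the consensus in 9.88% and sites with both in 6.20%. From sites with neither it was -5.00, -3.80 and -6.71, and the interval excluded 0 in the last part (-9.25 to -3.71). Within 100 bp of a start the differences were -5.05 (-10.0 to -0.751) from N-CoR-only sites, -4.33 (-8.15 to -0.664) from sites with both and -1.32 (-4.03 to 1.64) from sites with neither. The variant TGCGGT was in 118 windows (13.4%) against 2.10% at 1000 bp, and its share at N-CoR-only sites was 15.1%, with a difference of -1.73 percentage points (-5.41 to 1.82). Either form was in 182 windows (20.7%), against 7.33% at 1000 bp.

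ETS sequences split by form. The core AGGAAG, in 37.5% of all AML1-ETO sites and 22.4% of those near H3K4me3, was in 128 windows (14.5%, interval 12.3% to 17.1%), with 9.66% at 1000 bp. N-CoR-only sites near H3K4me3 held it in 33.2%, which is 18.6 percentage points more (14.3 to 23.0), and sites with both in 36.3%. Sites with neither held it in 17.3%, and the difference of -2.71 percentage points (-5.37 to 0.152) had an interval that included 0. The PU.1 sequence GAGGAA, bound by the ETS factor of myeloid cells, was in 96 windows (10.9%), with 9.03% at 1000 bp 22.1% at N-CoR-only sites and 13.2% at sites with neither. The promoter form CCGGAA was in 163 windows (18.5%, interval 16.0% to 21.3%), compared with 1.88% at 1000 bp and 5.45% at 300 bp. Its share was 17.2% at N-CoR-only sites, a difference of 1.29 percentage points (-2.70 to 5.16). It was higher at sites with both, 22.4%, a difference of -3.88 (-7.56 to -0.163), and lower at sites with neither, 10.6%, a difference of 7.92 (5.18 to 10.9). Within 100 bp of a start it was 20.6% at p300-only sites and 30.6% at sites with both, a difference of -10.0 (-15.3 to -4.69). The ETS core was less frequent than at N-CoR-only sites in each of the 3 parts of the list, by 19.5, 17.3 and 12.9 percentage points, and less frequent than at sites with both by 26.8, 16.0 and 11.1, against 21.8 over the whole list. The difference from N-CoR-only sites was 17.9 percentage points (11.9 to 24.2) when only sites within 100 bp of a start were compared, 75 of 578 against 83 of 269.

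The GC box, CRE, NRF1, YY1 and E-box sequences, but not the CCAAT box, were more frequent at the summit than 1000 bp beside it. The GC box GGGCGG, bound by Sp factors, was in 296 of the 880 windows (33.6%), against 8.47% at 1000 bp and 26.3% at 300 bp. It was in 32.9% of all AML1-ETO sites near H3K4me3, and p300-only sites exceeded sites with both (26.8%) by 6.88 percentage points (2.67 to 11.1), whereas the intervals of the differences from N-CoR-only sites (29.0%) and sites with neither (35.8%) included 0. The CRE sequence, bound by CREB and ATF factors, was in 62 (7.05%) against 1.19% at 1000 bp, and exceeded N-CoR-only sites (4.35%) by 2.70 percentage points (0.267 to 5.01). Within 100 bp of a start the CRE shares were 9.69% and 8.18%, and the interval of the difference included 0. The NRF1 palindrome was in 13 windows (1.48%) against 0.0568% at 1000 bp, with 0.161% at N-CoR-only sites, 0.106% at sites with both and 0.478% at sites with neither. The YY1 sequence was in 15 (1.70%), the CCAAT box in 64 (7.27%, against 11.1% at 1000 bp) and the E-box CACGTG in 37 (4.20%). All AML1-ETO sites near H3K4me3 held them in 0.788%, 8.00% and 3.31%, and of the differences from the other 3 classes only that in YY1 from sites with neither, 1.19 percentage points (0.424 to 2.30), had an interval that excluded 0. C/EBP (TTGCNNAA) was in 16 windows (1.82%) against 4.72% at 1000 bp, and AP-1 (TGANTCA) in 8 (0.909%), with 4.26% and 2.02% over all AML1-ETO sites near H3K4me3. The GATA sequence AGATAA was in 6 (0.682%), with 1.17% over all of them. The Myb sequence AACNGC was in 227 (25.8%) against 10.4% at 1000 bp, and in 25.3% of all AML1-ETO sites near H3K4me3. Of the 15 sequences, the difference from N-CoR-only sites near H3K4me3 excluded 0 for 7, with p300-only sites higher for 2 and lower for 5. Against sites with both they were higher for 3 and lower for 7, and against sites with neither higher for 4 and lower for 3. Several of these sequences share letters and can overlap, as AGGAAG does with GAGGAA, and a match does not show that the factor was bound.

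**Figure D5:**
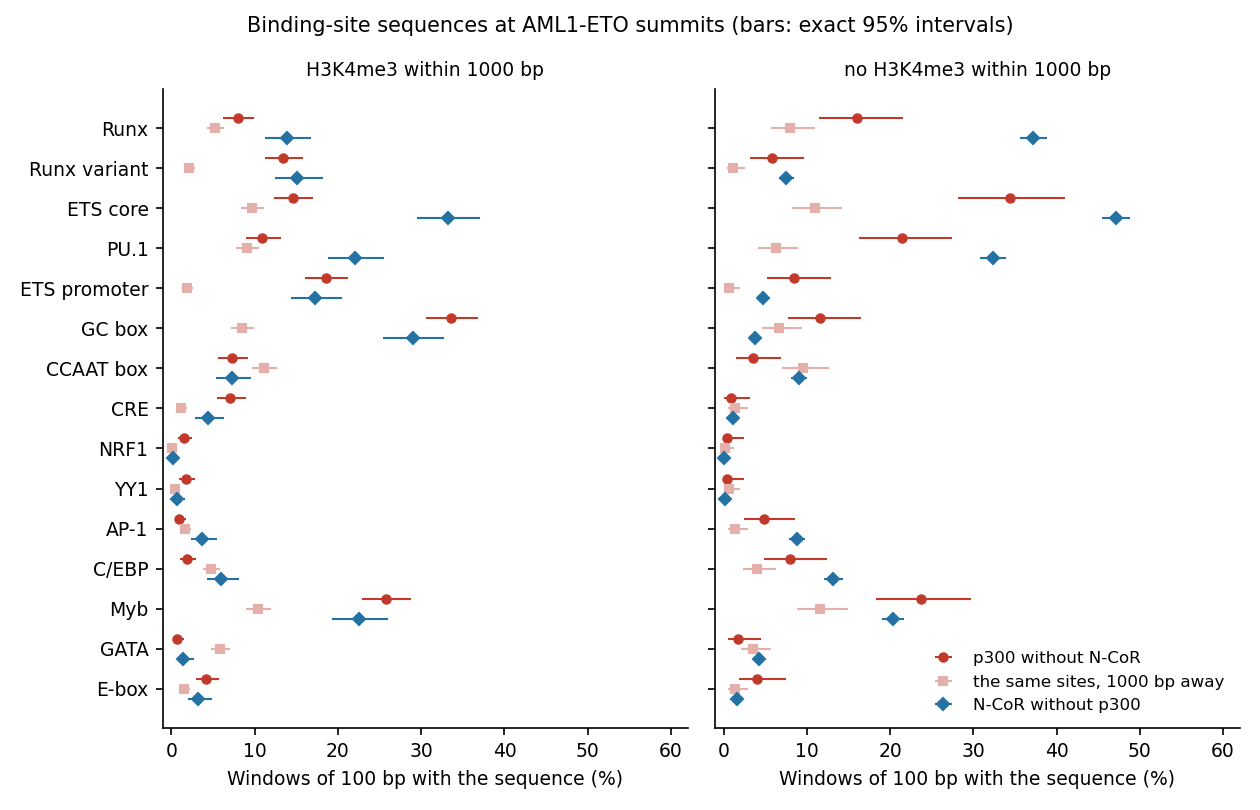
Share of 100 bp windows that hold each sequence on either strand (x axis, %), for p300-only sites (red circles), windows 1000 bp to either side of the same summits (pale squares) and N-CoR-only sites (blue diamonds), with exact 95% intervals, near H3K4me3 (left) and away from it (right). ETS core is at 14.5% and 33.2% for p300-only and N-CoR-only sites on the left, and at 34.4% and 47.2% on the right.

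The 224 sites without H3K4me3 differed in position and sequence. Their nearest H3K4me3 summit lay a median of 18727 bp away and at least 1006 bp. Introns held 88 of them (39.3%), promoters 68 (30.4%), the 10 kb upstream of genes 30, intergenic sequence 28 and exons 10. The median distance to the nearest start was 2923.5 bp. The promoter share was still higher than at N-CoR-only sites without H3K4me3 (14.6%), by 15.8 percentage points (9.99 to 22.2). Within 100 bp of a start lay 12.1% against 4.06%. With a limit of 2000 bp the H3K4me3 share of all 1104 p300-only sites was 83.4%, against 79.7% at 1000 bp. Some of the 224 sites were thus just past the limit, and their part in the promoter share was not tested. G and C made up 59.1% of their windows. AML1 overlapped 69.3% of N-CoR-only and 78.4% of both-bound sites without H3K4me3, against 34.4% here and 32.7% at sites with neither. The difference from sites with neither was 1.67 percentage points (-4.33 to 8.20), and within the 3 parts of the list 6.27, -3.51 and -5.28, each with an interval that included 0.

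The Runx consensus was in 36 of the 224 windows (16.1%, interval 11.5% to 21.5%), against 8.04% at 1000 bp and 4.91% at 300 bp. All AML1-ETO sites away from H3K4me3 held it in 38.5%, N-CoR-only sites in 37.2% and sites with neither in 43.3%, and sites with both came closest at 24.6%, a difference of -8.56 percentage points (-13.2 to -2.86). Within the 3 parts of the list the difference from sites with both was -4.52 (-14.5 to 8.54), 2.62 (-4.40 to 11.8) and 2.32 (-4.76 to 11.7), so its direction turned round in the second and the last. The share was below that of N-CoR-only sites in all 3 parts of the list, with differences of -18.0, -16.3 and -13.6 percentage points, and each interval excluded 0. The ETS core was in 77 windows (34.4%, interval 28.2% to 41.0%), against 10.9% at 1000 bp, 43.2% of all AML1-ETO sites away from H3K4me3 and 47.2% of N-CoR-only sites. Sites with both held it in 51.5%, a difference of -17.1 percentage points (-23.4 to -10.3) over the whole list and of -6.42 (-17.2 to 4.74) in the second of its 3 parts. Its difference from N-CoR-only sites was -19.2 and -19.9 percentage points in the first and the last part of the list and -7.32 (-17.4 to 3.16) in the second, where the interval included 0. Sites with neither held it in 39.4%, a difference of -5.02 (-11.0 to 1.51), which was -12.7 (-22.7 to 0.369), 4.80 (-4.94 to 15.0) and -11.5 (-20.6 to -0.213) in the 3 parts, with the direction turned round in the second. It was 19.8 percentage points more frequent (13.4 to 26.6) than in the p300-only sites near H3K4me3. The PU.1 sequence was in 48 windows (21.4%), C/EBP in 18 (8.04%) and AP-1 in 11 (4.91%), compared with 6.25%, 4.02% and 1.34% at 1000 bp. These shares are set against the flanks only and do not show a difference from other AML1-ETO sites away from H3K4me3. Of the 15 sequences, p300-only sites were higher than N-CoR-only sites for 4 and lower for 6, with intervals that excluded 0. Against sites with both they were higher for 2 and lower for 3, and against sites with neither higher for 3 and lower for 3. The GC box, in 26 windows (11.6%), and the ETS promoter form, in 19 (8.48%), exceeded N-CoR-only sites by 7.85 (4.23 to 12.7) and 3.78 percentage points (0.701 to 8.21). N-CoR summits within 1000 bp were at 66 of these sites (29.5%), outside the overlap limit, against 9.89% of sites near H3K4me3.

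Most of the lowest-numbered sites away from H3K4me3 had N-CoR close by. Of the 10, 6 had the nearest N-CoR summit between 106 and 129 bp away, at ATP6V1G2, TNFAIP3, MATK, PIGV, ENG and ADTRP, and at NTSR1 and MBP it lay 458 and 361 bp away. The site at PIGV, a gene of glycolipid anchor synthesis, lay 17 bp downstream of a start, with an H3K4me3 summit at 1368 bp. Only the site at LINC02980 had none within 1000 bp among these 10. The next lowest-numbered sites of that kind were 968 bp upstream of C1orf105, 9645 bp downstream of a start of BLM, a DNA helicase gene, 269 bp downstream of RAB37, a small GTPase gene, and 7 bp downstream of TSC22D2. H3K4me3 lay between 1045 and 41298 bp from these 5 sites, and at LINC02980 and TSC22D2 it was just past the 1000 bp limit, at 1045 and 1066 bp.

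Few genes gathered several sites. Taking for each site the nearest protein-coding gene, 1012 genes had 1 site, 43 had 2 and 2 had 3. MRGBP, a subunit gene of a histone acetyltransferase complex, had its 3 at 1012, 1874 and 2292 bp upstream of the start, with H3K4me3 at 207, 1069 and 1487 bp and the nearest N-CoR summit at 17020 bp or more. At NRN1, the gene of neuritin, the sites lay 59, 137261 and 220220 bp downstream of the nearest protein-coding start. TNFAIP3 and MATK, a tyrosine kinase gene, each paired a promoter site near H3K4me3 (2 bp downstream and 6 bp upstream of a start) with a low-numbered site away from it. ALOX5, which encodes the first enzyme of leukotriene synthesis, had sites 5335 bp upstream and 1146 bp downstream of the same start. PIK3AP1, a signaling adaptor gene, had one 99 bp upstream and one 13122 bp downstream of different starts. FBXO41 had sites 171 and 839 bp upstream, and ID1, an inhibitor of basic helix-loop-helix factors, 7678 and 12348 bp downstream. BAHCC1 and SPIDR completed the 10 genes named by this rule. Sites of 1 gene share their surroundings and are not independent of each other.

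The sites nearest to N-CoR had H3K4me3 less often than those far from it. The 64 sites with an N-CoR summit 100 to 199 bp away had H3K4me3 in 40.6% (28.5% to 53.6%), AML1 in 48.4%, the Runx consensus in 18.8% and the ETS core in 21.9%. The 951 with none within 1000 bp had H3K4me3 in 83.4% (80.9% to 85.7%), AML1 in 33.8%, the Runx consensus in 8.73% and the ETS core in 18.4%. Sites that held both co-regulators with the N-CoR summit 50 to 99 bp away had H3K4me3 in 37.8% (32.9% to 42.8%), AML1 in 71.9%, the Runx consensus in 17.3% and the ETS core in 36.0%. The median peak numbers of these 3 groups were 8156.5, 11589 and 5041.5, and the part of the deposited order in their differences was not tested.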

How the data were processed

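ChIP-seq in Kasumi-1 was analysed from 5 peak lists (H3K4me3, p300, N-CoR, AML1 and AML1-ETO). The authors aligned the reads to hg19, pooled 2 biological replicates per antibody and called peaks with MACS. The submitters' processing notes name CASAVA 1.6, Bowtie 0.12.8 and MACS2 2.0.10.20131216. The deposited lists hold summit positions in BED format, with no score, count, signal or p-value, so the values here are counts of sites.

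From the positions, windows of 50 bp to either side of summits were compared, and an overlap of 1 bp sufficed. Starts and elements came from GENCODE release 44 lifted to GRCh37 (254413 transcripts), sequences from GRCh37. Each site took the first that applied of promoter (within 1000 bp of a start), exon, intron, upstream within 10 kb and intergenic. Consensus sequences on both strands were searched in the 100 bp window, and 1000 and 300 bp beside it. The classes and the sequence counts were tested on simulated data, where all 5000 classes and all 7500 planted sequences were recovered. Named sites were the 10 lowest in deposited order with and without H3K4me3, the 5 lowest without N-CoR within 1000 bp, genes with 2 or more sites (at most 10) and, per gene list, up to 6 genes with a site. For printed sequences, windows over exons or on chromosome 8 were passed over. A site among those named by this rule is not reported here. Members, lists and sequences were chosen with earlier results of these data known. Alternatives were other windows and distances, chromosomes left out, the first part of the lists, other sequences and, chosen after seeing the data, 3 equal parts of the deposited order and sites within 100 bp of a start. The libraries of H3K27me3 and input were not used here. Python 3.11.15, numpy 2.4.6, SciPy 1.17.1, statsmodels 0.14.6, pysam 0.24.0, samtools 1.23.1 and matplotlib 3.10.9 were used.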

Additional observations from a re-analysis of the deposited data

How the results depend on the processing

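Each list was pooled over replicates and has no read counts, so neither replicate error nor the depth at single sites could be assessed. A site counted as without N-CoR is one whose window overlapped no window around a called N-CoR summit. At 64 of these sites such a summit lay 100 to 199 bp away. No paired analysis was possible because there is 1 list per antibody. No H3K4me3 difference from N-CoR-only sites reversed under these alternatives, and the differences that did reverse are given last. With windows of 25 bp to either side, 970 sites had H3K4me3 in 68.9%, a start in 68.5% and the ETS core in 23.5%, and the H3K4me3 difference from N-CoR-only sites was 52.5 percentage points. With 100 bp, 1351 sites had H3K4me3 in 84.8%, a start in 82.8% and AML1 in 37.7%, with a difference of 72.5. Without an N-CoR summit within 1000 bp, the H3K4me3 and promoter shares were 83.4% and 81.3%. The first of 2 equal parts of the AML1-ETO list held 359 of the sites, with H3K4me3 in 72.1%, a start in 69.6%, AML1 in 50.7%, the Runx consensus in 13.9% and a difference of 58.5. That of the p300 list held 474, with 85.2%, 84.0%, AML1 in 41.1%, the ETS core in 15.6% and a difference of 70.4. H3K4me3 within 500 bp gave 65.9% and a difference of 55.8, and within 2000 bp 83.4%. Starts within 500 and 2000 bp gave promoter shares of 73.9% and 82.8%, and protein-coding starts alone 72.9%. Within 100 bp of the summit the Runx consensus was in 13.9% and the ETS core in 32.3%. TGTGGT or TGCGGT was in 20.9%, and GAGGAA in 13.0%. Leaving out chromosomes 8 and 21, or each of 23 chromosomes in turn, left the shares within their 95% intervals, with H3K4me3 between 79.0% and 80.1% over the 23.

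The differences from the other classes in 3 equal parts of the deposited order were chosen after seeing the data. From N-CoR-only sites near H3K4me3, the AML1 difference was -5.04 and -5.95 percentage points in the second and the last part, the Runx difference -2.29 in the second, where its interval and those of the other parts included 0, and the ETS core difference -12.9 in the last. Away from H3K4me3 the AML1 differences were -18.1, -27.9 and -19.0, the Runx difference -13.6 in the last part, and the ETS core differences -19.2 and -19.9 in the first and the last and -7.32 (-17.4 to 3.16) in the second. For sites near H3K4me3 within 100 bp of a start, the AML1 difference was -16.4. From sites with both, the Runx difference reversed, to 3.68 in the second part near H3K4me3 (-0.626 in the last) and to 2.62 and 2.32 in the second and the last part away from it, where all these intervals included 0. The AML1 differences from sites with both were -25.4, -20.4 and -21.5 near H3K4me3 and -26.0, -21.3 and -13.7 away from it, and those in the ETS core -26.8, -16.0 and -11.1, and -26.2, -6.42 (-17.2 to 4.74) and -23.6. From sites with neither, the Runx difference was -1.32 within 100 bp of a start. The ETS core difference from them, whose interval included 0 over the whole list, was 1.03 in the first part near H3K4me3 and -12.7, 4.80 and -11.5 (-20.6 to -0.213) away from it, and the AML1 difference away from H3K4me3 was -5.28 in the last part. The cause of these shifts was not tested.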
